A study of Homo sapiens with 9 samples.

Results

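The MYC, MAX and MXD network is a family of transcription factors of the basic helix-loop-helix leucine zipper class, described here in human 293T cells after knockdown of the RNA exonuclease DIS3. Its members were taken by gene symbol: MYC, MYCN, MYCL, MAX, MXD1, MXD3, MXD4, MXI1, MNT and MLX. No threshold on measured values entered the choice, but it was made with earlier results of these data known. All 10 were found among the 61853 genes of the deposited table, and all 10 passed the expression filter that left 19591 genes for testing. 293T is an established line of human embryonic kidney origin, and the cells of every group carry its SV40 large T antigen. The study compared 293T cells given a shRNA against DIS3 (DIS3-sh1 or DIS3-sh2, genotype DIS3 knockdown) with cells given a Scramble shRNA (genotype WT), with 3 libraries each, and asks how loss of DIS3 changes circular RNAs. The 3 DIS3-sh1 and the 3 Scramble libraries are used below, and DIS3-sh2 is not analysed here. Effects of DIS3 loss and other effects of the DIS3-sh1 shRNA therefore cannot be told apart. The labels say nothing of clones, time after shRNA delivery or separate cultures, so p-values measure the spread between these libraries, which may be technical.

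MAX is the hub of the network. It has no strong effect of its own and pairs with the other members, apart from MLX, to bind the E-box, the DNA word CACGTG. MYC, MYCN and MYCL recruit co-activators as dimers with MAX and drive genes of growth, ribosome assembly and metabolism, whereas MXD1, MXD3, MXD4, MXI1 and MNT compete for MAX and recruit the SIN3 repressor complex. MLX heads a parallel arm: it pairs with the glucose-responsive factors MLXIP (MondoA) and MLXIPL (ChREBP), and also with MNT and some MXD proteins. MYC mRNA is short-lived, and its level in cultured cells follows growth signals closely.

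Library totals ranged from 19800892 to 21100677 counts in DIS3-sh1 and from 20722775 to 23532148 counts in Scramble. Values are CPM, that is, counts relative to library size, here with TMM scaling, and group values are mean ± SD over 3 libraries. Calls are from edgeR's quasi-likelihood test with Benjamini-Hochberg adjustment over all 19591 genes, at an adjusted p under 0.05. DIS3, the target of the shRNA, averaged 27.4 ± 0.72 CPM in DIS3-sh1 and 180 ± 5.63 CPM in Scramble, or 15.3% of the Scramble level by the fit. The cell line markers KRT8, KRT18, VIM, NEFL, NEFM and PAX2 were all detected in both groups, with KRT8 at 32.6 CPM in DIS3-sh1 and 4.64 CPM in Scramble and PAX2 at 4.33 CPM in DIS3-sh1 and 1.66 CPM in Scramble. KRT8, PAX2, KRT18 and VIM were called higher and NEFL and NEFM lower, with log2 fold changes from -0.25 for NEFL to 2.81 for KRT8, and their part in the results was not tested. Among markers of other cell types PTPRC, CD3E, ALB, PECAM1 and HBB were at or below 0.23 CPM on average, while COL1A1 averaged 24.97 CPM in DIS3-sh1 and 14.7 CPM in Scramble. In bulk RNA, fewer cells of a kind and less RNA per cell cannot be told apart.

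The network changed unevenly, and its common partner fell. Of the 10 members, 5 were called higher in DIS3-sh1 (MYC, MYCL, MXD3, MNT and MLX), 2 were called lower (MAX and MXD1) and 3 were not called (MYCN, MXD4 and MXI1). Over all genes tested, 67% were called, 34.5% higher and 32.6% lower, so 7 calls among 10 members are close to the share found over all genes in these libraries. The groups did not overlap for 7 members, where 69.8% of all tested genes did not overlap. The median log2 fold change of the members was 0.13, and that of all genes tested was 0.02. What sets the members apart from one another is size: log2 changes ran from -0.73 for MAX to 0.62 for MYCL, and 4 members (MAX, MYCL, MXD1 and MXD3) changed by at least 0.5 in size and were called, as 37.4% of all genes did.

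**Figure D1:**
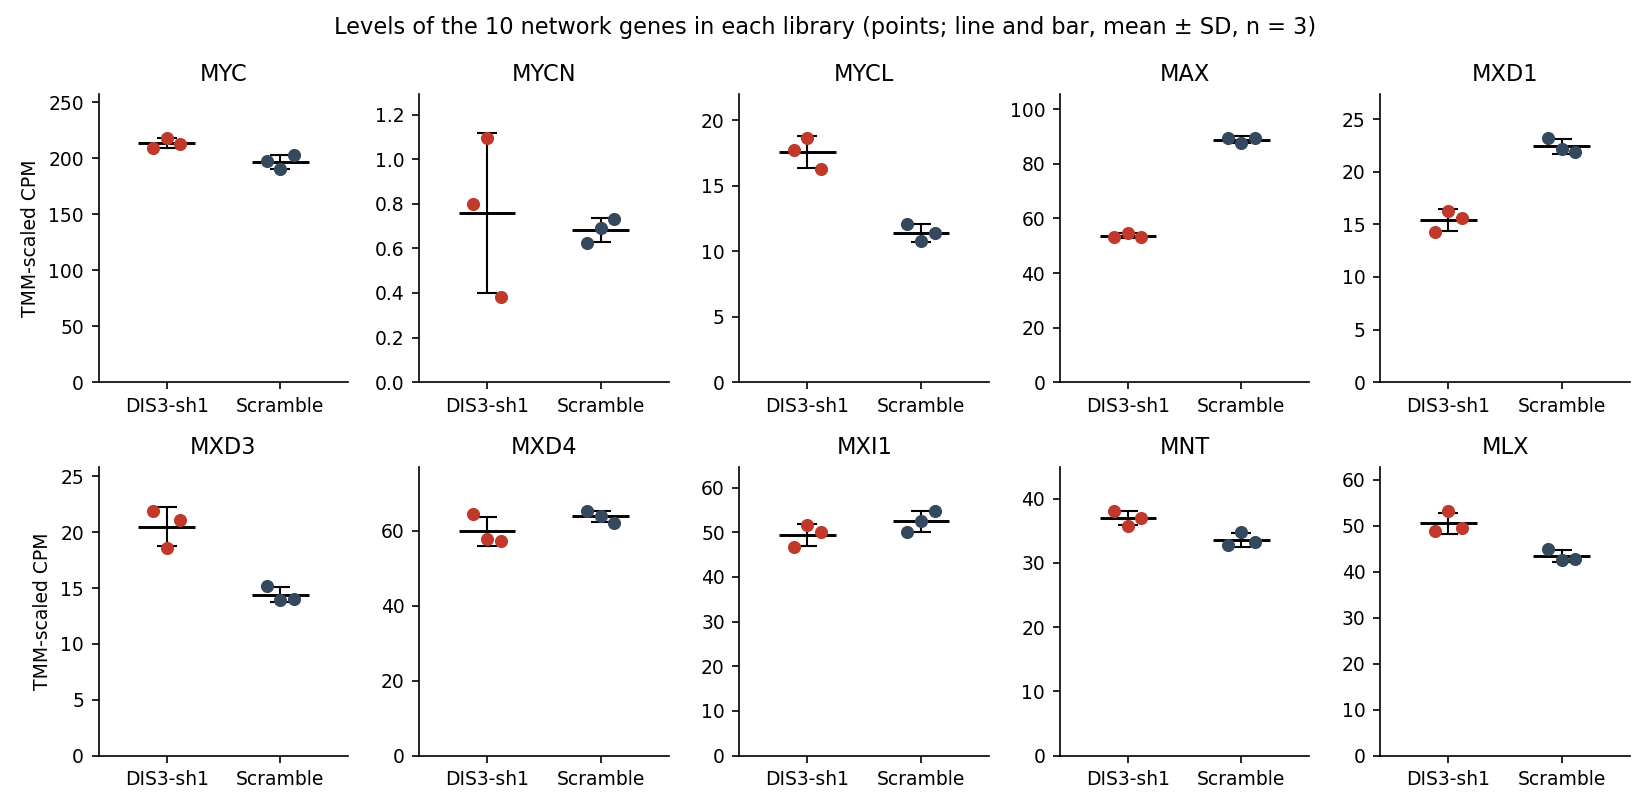
TMM-scaled CPM (vertical axes, from 0, with a scale for each gene) of the 10 network genes in each DIS3-sh1 and Scramble library; points are libraries, and lines with bars are mean ± SD (n = 3 per group). In DIS3-sh1 all 3 libraries lie below every Scramble library for MAX and MXD1, those of MYC, MYCL, MXD3, MNT and MLX lie above them, and the groups overlap for MYCN, MXD4 and MXI1.

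MAX, the obligate partner of MYC, was reduced in DIS3-sh1. The gene (ENSG00000125952.20) spans 65006174 to 65102695 of chromosome 14 in GRCh38, on the minus strand. It measured 53.3, 54.7 and 53.1 CPM in the DIS3-sh1 libraries, against 89.6, 87.5 and 89.6 CPM in the Scramble libraries. All 3 DIS3-sh1 values lie far below the lowest Scramble value, and each group is tight. The means were 53.7 ± 0.87 CPM in DIS3-sh1 and 88.9 ± 1.23 CPM in Scramble, a log2 fold change of -0.73 (SE 0.04, edgeR adjusted p = 1.03e-15), which leaves 60.4% of the Scramble level. The change was larger in size than that of 74.7% of the genes tested. FNTB, a farnesyltransferase subunit gene, and the readthrough locus CHURC1-FNTB overlap MAX on the other strand. FNTB had 281 to 311 counts per library in DIS3-sh1 and 352 to 455 in Scramble, against 1097 to 1132 MAX counts in DIS3-sh1 and 1832 to 2080 in Scramble. Whether counting used the strand is not stated, so reads of these genes and of MAX cannot be told apart with certainty.

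MYC itself was slightly higher in DIS3-sh1. MYC (ENSG00000136997.21, chromosome 8, plus strand, 127735434 to 127741434) measured 209, 219 and 213 CPM in the DIS3-sh1 libraries and 197, 191 and 203 CPM in the Scramble libraries. The lowest DIS3-sh1 library lies just above the highest Scramble library. The log2 fold change was 0.12 (SE 0.03, edgeR adjusted p = 0.00146), a size exceeded by most genes in these libraries, since only 15.4% of them changed less. With upper-quartile scaling the value was 0.20. The median over all genes tested was also higher in that setting, 0.10 against 0.02 as reported. The size of so small a change therefore depends on the scaling. MYCL (ENSG00000116990.11, chromosome 1, minus strand, 39895426 to 39902256), the paralog first found amplified in small cell lung cancer, showed the largest rise of the 10. It measured 17.7, 18.7 and 16.3 CPM in DIS3-sh1, against 12.1, 10.8 and 11.4 CPM in Scramble, with a wide gap between the groups. Its log2 fold change was 0.62 (SE 0.09, edgeR adjusted p = 2.21e-07), or 1.54-fold.

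MYCN (ENSG00000134323.13, chromosome 2, plus strand, 15940564 to 15947007), the paralog of neuroblastoma and of neural and kidney development, was close to the detection limit. It had 17, 22 and 8 counts in the DIS3-sh1 libraries and 14.5, 14.5 and 15 counts in the Scramble libraries, or 0.76 ± 0.36 CPM in DIS3-sh1 and 0.68 ± 0.06 CPM in Scramble. The DIS3-sh1 values lie on either side of the Scramble values. At this depth no difference was detectable: the log2 fold change was 0.18, with a 95% interval of -0.57 to 0.93 from 1.96 SE on each side. The antisense gene MYCNOS overlaps it and had 0 to 2 counts in DIS3-sh1 and 0 to 5 in Scramble.

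The antagonists of MYC went in different directions. MXD1 (MAD1; ENSG00000059728.11, chromosome 2, plus strand, 69897688 to 69942945), which rises when many cell types differentiate, measured 14.3, 16.3 and 15.6 CPM in DIS3-sh1, against 23.3, 22.2 and 21.9 CPM in Scramble. The highest DIS3-sh1 library stayed well below the lowest Scramble library, with a log2 fold change of -0.54 (SE 0.08, edgeR adjusted p = 2.19e-07). SNRNP27, a spliceosome protein gene annotated on the same strand and overlapping the MXD1 locus, also fell, by 0.47 on the log2 scale (427 to 516 counts in DIS3-sh1 and 671 to 702 in Scramble), and reads in the shared stretch may be split. MXD3 (ENSG00000213347.11, chromosome 5, minus strand, 177301461 to 177312757), the MXD gene linked to S phase in mouse, moved the other way. It measured 21.9, 18.6 and 21.1 CPM in DIS3-sh1 and 15.2, 14.0 and 14.1 CPM in Scramble, again with no overlap, a log2 fold change of 0.51 (SE 0.08, edgeR adjusted p = 2.18e-06). PRELID1, a mitochondrial lipid transfer gene that overlaps MXD3 on the other strand, fell by 0.76, opposite to MXD3. It had 2312 to 2486 counts in DIS3-sh1 and 3975 to 4652 in Scramble. Whether counting used the strand is not stated, so its reads and those of MXD3 cannot be told apart with certainty. RAB24, a small GTPase gene that overlaps MXD3 on the same strand, had 299.5 to 337 counts in DIS3-sh1 and 284 to 340 in Scramble and was not called (log2 fold change 0.12, edgeR adjusted p = 0.195), and reads in the shared stretch may be split.

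MXD4 and MXI1, the antagonists with the highest CPM, were not called. MXD4 (ENSG00000123933.17, chromosome 4, minus strand, 2247432 to 2262294) measured 64.3, 57.8 and 57.3 CPM in DIS3-sh1 and 65.2, 64.0 and 62.1 CPM in Scramble. DIS3-sh1 replicate 1 lies among the Scramble libraries and the other DIS3-sh1 libraries lie below them. The log2 fold change was -0.09, with a 95% interval of -0.188 to 0.004 (edgeR adjusted p = 0.0981); without DIS3-sh1 replicate 1 it was -0.14 and called lower (adjusted p = 0.0074). MXI1 (ENSG00000119950.21, chromosome 10, plus strand, 110207605 to 110287365) measured 46.7, 51.6 and 49.96 CPM in DIS3-sh1 and 50.1, 52.6 and 54.8 CPM in Scramble. Its groups overlap, with a log2 fold change of -0.09 and a 95% interval of -0.19 to 0.02 (edgeR adjusted p = 0.148). It was -0.04 without DIS3-sh1 replicate 1 and -0.0052 with upper-quartile scaling, and was not called in either.

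MNT and MLX, which lie on chromosome 17 in separate regions, were slightly higher. MNT (ENSG00000070444.15, minus strand, 2384060 to 2401118), the antagonist present in cycling as well as resting cells, measured 38.1, 35.8 and 37.0 CPM in DIS3-sh1, against 32.8, 34.8 and 33.2 CPM in Scramble. The groups are separated by a narrow gap, and the log2 fold change of 0.14 (SE 0.06, edgeR adjusted p = 0.0329) was close to the threshold. The call of MNT was lost with RLE scaling (adjusted p = 0.0515), with DESeq2 (0.105) and with no filter on low counts (0.0651). It was also lost without any of DIS3-sh1 replicate 1 (0.0788), DIS3-sh1 replicate 3 (0.0636), Scramble replicate 1 (0.125) or Scramble replicate 3 (0.104). With upper-quartile scaling the log2 fold change of MNT was 0.22, where the median over all genes tested was 0.10. MLX (ENSG00000108788.12, plus strand, 42567068 to 42573239) measured 48.9, 53.2 and 49.6 CPM in DIS3-sh1 and 45.0, 42.6 and 42.8 CPM in Scramble. All 3 DIS3-sh1 libraries lie above the Scramble libraries, with a log2 fold change of 0.22 (SE 0.05, edgeR adjusted p = 0.000525). PSMC3IP, a recombination factor gene that overlaps the end of MLX on the other strand, was higher by a log2 fold change of 0.22 as well. With strand use in counting not stated, reads of PSMC3IP and MLX cannot be told apart with certainty.

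**Figure D2:**
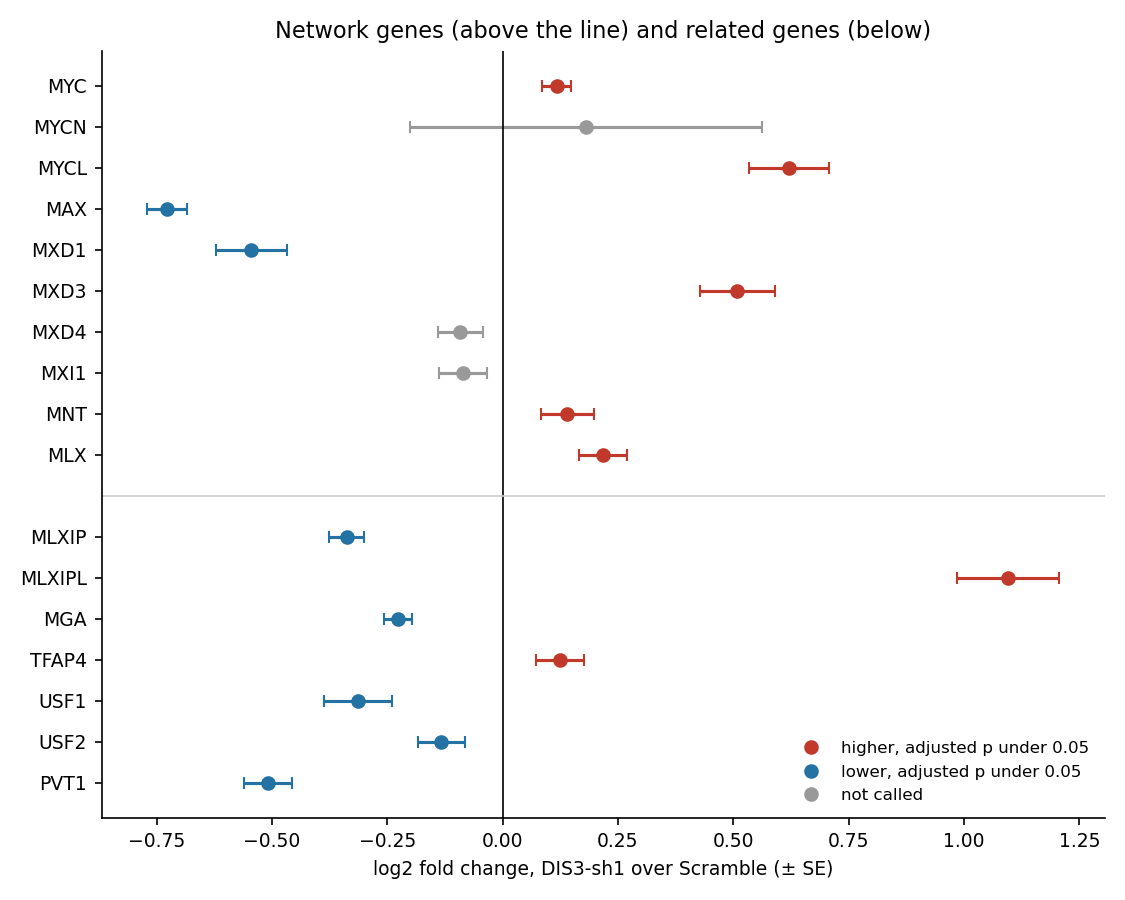
Log2 fold change of DIS3-sh1 over Scramble (horizontal axis, ± SE) for the 10 network genes and 7 tested genes of the extended network; red is called higher, blue called lower and grey not called at an adjusted p under 0.05 (edgeR). MAX has the most negative value, -0.73, and MLXIPL the most positive, 1.10.

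Because MAX fell while MYC did not, their proportion shifted. This was read as a ratio of counts within each library, into which no scaling enters, and the measure was chosen after the values of the single genes were seen. There were 3.930, 3.995 and 4.010 MYC counts per MAX count in the DIS3-sh1 libraries, against 2.20, 2.18 and 2.27 in the Scramble libraries. The groups stand well apart, with means of 3.98 ± 0.04 in DIS3-sh1 and 2.22 ± 0.05 in Scramble (SD, n = 3 each), a 1.80-fold difference. A two-sided exact permutation test of 3 against 3 libraries gave p = 0.1, the smallest it can give. MYC and MAX were each already separated between the groups, in opposite directions, so this outcome was fixed in advance. All 8 members that pair with MAX here (the MYC, MXD and MNT genes) together had 7.76, 7.65 and 7.73 counts per MAX count in DIS3-sh1 and 4.43, 4.45 and 4.48 in Scramble, a 1.73-fold difference. These are ratios of reads, and since the transcripts differ in length they are not ratios of molecules.

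Within the partners, the balance between activators and repressors moved less. MYC, MYCN and MYCL summed to 232 ± 5.58 CPM in DIS3-sh1 and 209 ± 6.58 CPM in Scramble. The 5 repressor genes (MXD1, MXD3, MXD4, MXI1 and MNT) summed to 182 ± 2.76 CPM in DIS3-sh1 and 187 ± 0.77 CPM in Scramble, so that the fall of MXD1 and the rise of MXD3 largely offset each other in the sum. Per library, there were 1.23, 1.32 and 1.27 activator counts per repressor count in DIS3-sh1, against 1.13, 1.08 and 1.16 in Scramble. The groups do not overlap, and the ratio differed 1.14-fold (two-sided exact permutation test, p = 0.1, the smallest possible with 3 libraries a group). This ratio too was chosen after the values of the single genes were seen. Both CPM sums were already separated between the groups, in opposite directions, so the outcome of the test was fixed and adds nothing to them.

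**Figure D3:**
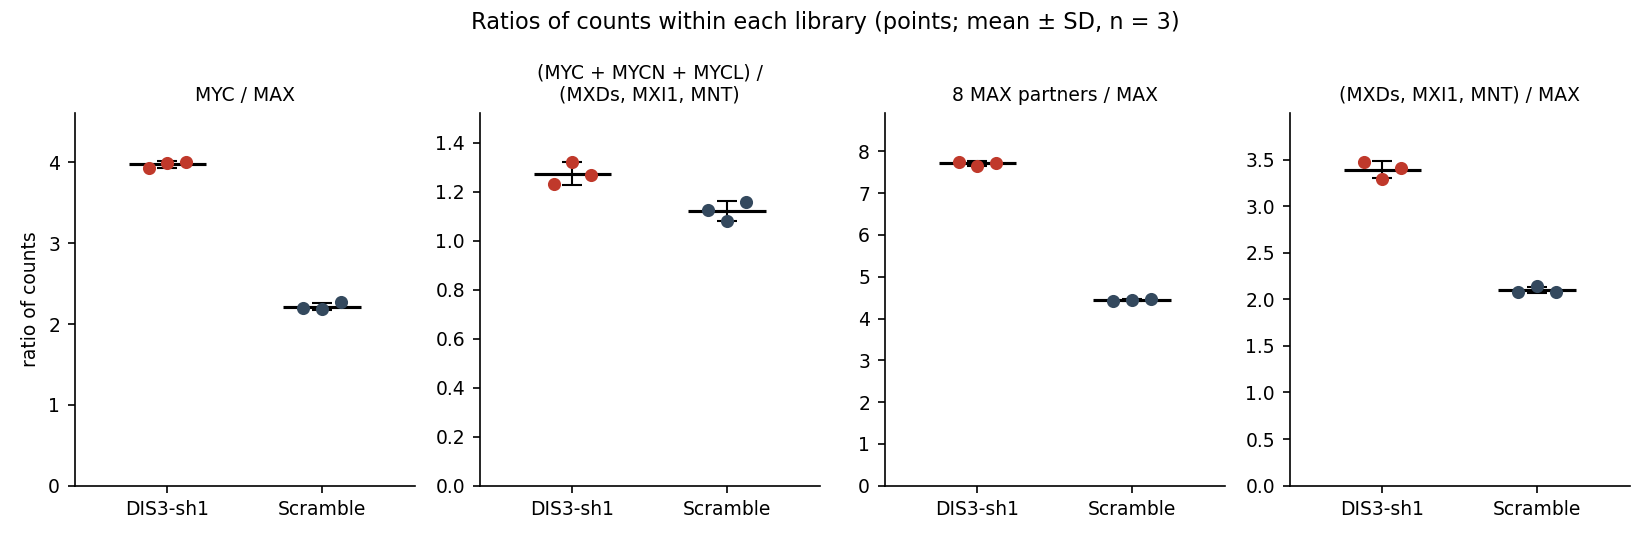
Ratios of counts within each library (vertical axes, from 0), with DIS3-sh1 left and Scramble right; points are libraries, and lines with bars are mean ± SD (n = 3). MYC counts per MAX count averaged 3.98 in DIS3-sh1 and 2.22 in Scramble, whereas MYC-family counts per repressor count averaged 1.27 in DIS3-sh1 and 1.12 in Scramble.

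Per length of gene, MYC was by far the most abundant member in both groups. Over the summed exon length of GENCODE 29, it measured 71.2 ± 1.54 CPM per kb in DIS3-sh1 and 65.7 ± 2.07 CPM per kb in Scramble. MAX came next, at 12.1 ± 0.20 CPM per kb in DIS3-sh1 and 20.1 ± 0.28 CPM per kb in Scramble. In Scramble, MAX stood clear of the member that followed it, MXI1 at 11.4 ± 0.50 CPM per kb. In DIS3-sh1 it did not: MLX averaged 11.9 ± 0.54 CPM per kb, and the MLX libraries (11.5 to 12.5) overlapped those of MAX (11.995 to 12.35). Below these in DIS3-sh1 came MXI1 (10.7), MXD4 (8.47), MNT (4.24), MXD3 (3.98), MYCL (3.47), MXD1 (2.43) and MYCN (0.29 CPM per kb), of which MNT and MXD3, and MXD3 and MYCL, overlapped in their libraries. In Scramble, MXI1 was followed by MLX (10.2), MXD4 (9.03), MNT (3.85), MXD1 (3.53), MXD3 (2.80), MYCL (2.26) and MYCN (0.26 CPM per kb), and no neighbours in that order overlapped in their libraries. MXD3 and MYCL thus stood above MXD1 in DIS3-sh1 and below it in Scramble by this length. With the longest coding transcript as the length, MYCL again changed places with MXD1, but MXD3 stood above MXD1 in both groups (9.04 and 2.76 CPM per kb in DIS3-sh1, and 6.35 and 4.02 in Scramble). By the same length, MLX stood above MAX in DIS3-sh1 (19.6 and 17.0 CPM per kb) and MAX above MLX in Scramble (28.2 and 16.8 CPM per kb). Introns and isoforms that the annotation lengths do not weigh can move these levels.

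The E-box that the network's dimers bind occurs in the start regions of some of its own genes. RefSeq start regions (250 bases before to 50 after a transcript start, GRCh38.p14) were at hand for 9 members in 12 windows, and MYC is not among them. The word CACGTG, which reads the same on both strands, was found in 3 of these 9 genes, MXD4, MNT and MLX. Of all 27305 genes in the same table, 8.77% have it in a window. The 3 sites are shown because they are what the pair of MAX with a partner recognises; each line is 30 bases, 5' to 3' on the strand of the gene, with the E-box in capitals.
MXD4, chr4:2262330-2262359, minus strand: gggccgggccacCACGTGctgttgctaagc
MNT, chr17:2401236-2401265, minus strand: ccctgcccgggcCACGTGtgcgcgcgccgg
MLX, chr17:42567038-42567067, plus strand: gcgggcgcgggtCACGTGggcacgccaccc
The E-box starts at position -238 from the transcript start in MXD4, -193 in MNT and -50 in MLX. Of these 3 genes, MLX and MNT were called higher in DIS3-sh1 (log2 fold changes 0.22 and 0.14) and MXD4 was not called. The windows of MAX, MXD1, MXD3, MXI1, MYCL and MYCN hold no CACGTG, and the looser word CANNTG, which includes CACGTG, is in a window of 8 of the 9 genes, all but MAX, and of 73.1% of all genes. A match says nothing of whether a site is bound.

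In the parallel MLX arm, the mRNAs of the glucose-responsive partners changed in opposite directions. MLXIP stayed far above MLXIPL in CPM in both groups, and a link between the changes in this arm was not tested. MLXIPL (ChREBP), the form best known from liver, was 12.22, 13.02 and 12.21 CPM in the DIS3-sh1 libraries, against 5.90, 4.93 and 6.63 CPM in the Scramble libraries, a clean separation at a low level (log2 fold change 1.10, SE 0.11, edgeR adjusted p = 2.96e-10). MLXIP (MondoA), which is broadly expressed, averaged 146 ± 6.82 CPM in DIS3-sh1 and 184 ± 8.78 CPM in Scramble, a log2 fold change of -0.34 (SE 0.04). TXNIP and ARRDC4, arrestin-domain genes that MondoA activates in response to glucose, rose: TXNIP averaged 121 ± 1.19 CPM in DIS3-sh1 and 30.6 ± 1.05 CPM in Scramble, and ARRDC4 averaged 44.6 ± 1.59 CPM in DIS3-sh1 and 30.6 ± 0.66 CPM in Scramble.

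Of the 9 genes listed as the extended network, 7 were tested, of which 2 were called higher and 5 lower (median log2 fold change -0.23), where 34.5% of all genes were called higher and 32.6% lower. MGA, a giant MAX partner of the non-canonical Polycomb complex, averaged 196 ± 4.39 CPM in DIS3-sh1 and 230 ± 4.02 CPM in Scramble (log2 fold change -0.23, SE 0.03). PVT1 (ENSG00000249859.14), the long non-coding RNA gene downstream of MYC, fell while MYC did not: it measured 38.2, 35.2 and 37.0 CPM in DIS3-sh1 and 52.8, 51.9 and 52.3 CPM in Scramble, a log2 fold change of -0.51 (SE 0.05, edgeR adjusted p = 4.67e-10). Among other E-box binders outside the MAX network, USF1 fell (-0.31), USF2 fell by 0.13 and TFAP4 was higher (0.12). The call of USF2 was lost with upper-quartile scaling and without any of DIS3-sh1 replicates 2 and 3 and Scramble replicates 1 and 3. The call of TFAP4 was lost with RLE scaling, DESeq2 and no filter, and without each of 5 libraries in turn, all but DIS3-sh1 replicate 2. MYCNOS was too low to test, and the pseudogene MYCLP1 had 0 counts in every library.

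Cofactors of the network and regulators of MYC turnover were mostly lower. Of 34 tested, 26 were called lower, 4 higher and 4 missed the threshold, and their median log2 fold change was -0.30, where 32.6% of all genes were called lower. The list was written by hand with earlier results of these data known, so its direction is a description. HCFC1, a chromatin cofactor that MYC contacts, averaged 323 ± 8.45 CPM in DIS3-sh1 and 604 ± 12.1 CPM in Scramble (log2 fold change -0.91). HNRNPD (AUF1), an AU-rich element binding protein gene, fell by 0.98, HNRNPK by 0.60 and CNBP, a binder of G-rich promoter and RNA sequences, by 0.63. The 4 that rose were BIN1, an adaptor that binds the MYC amino terminus (34.7 ± 0.38 CPM in DIS3-sh1 and 18.6 ± 0.87 CPM in Scramble, log2 fold change 0.90), the kinase gene PIM1 (0.57), and, by small amounts, the acetyltransferase complex genes EP400 (0.12) and TRRAP (0.10), which stood at 0.20 and 0.18 with upper-quartile scaling. HUWE1, a ubiquitin ligase gene for MYC, was called lower by 0.06 and stood at 0.02 with upper-quartile scaling, where it was not called. In that setting the median over all genes tested was 0.10, so the values of EP400 and TRRAP there are raised with it. HUWE1 was named after its values were seen.

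Most genes listed as activated by MYC were lower in DIS3-sh1. Of 65 tested, 55 were called lower, 5 higher and 5 missed the threshold, and their median log2 fold change was -0.64. Over all genes tested, 32.6% were called lower and 34.5% higher, with a median of 0.02. Many of them act in ribosome assembly, and the list was written with earlier results of these data known, so its direction is a description. UTP20, a small-subunit processome gene, averaged 71.4 ± 1.34 CPM in DIS3-sh1 and 183 ± 2.05 CPM in Scramble (log2 fold change -1.36, SE 0.04). ODC1, the first enzyme of polyamine synthesis, averaged 159 ± 3.86 CPM in DIS3-sh1 and 329 ± 3.27 CPM in Scramble (-1.05), and LDHA, lactate dehydrogenase A, averaged 480 ± 10.8 CPM in DIS3-sh1 and 898 ± 13.8 CPM in Scramble (-0.90). Those that rose were the cyclin gene CCND2 (log2 fold change 1.96), the serine-to-glycine enzyme gene SHMT2 (0.69), the pyrimidine synthesis gene CAD (0.49), the kinase gene MAP3K6 (0.64) and the telomerase gene TERT (0.52). TERT was named after its values were seen.

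Genes known to be repressed by MYC, or held down where it is active, were mixed. Of 12 listed, 11 were tested: 5 were called higher, 3 lower and 3 missed the threshold, and the median log2 fold change was 0.33. That is 45.5% higher and 27.3% lower, near the 34.5% and 32.6% of all genes tested. TXNIP (1.99), GADD45A, a growth arrest gene (1.01), CDKN1A, a cyclin-dependent kinase inhibitor (0.90), ARRDC4 (0.54) and NDRG1 (0.41) were higher. CDKN2B, another kinase inhibitor and a classic MYC-repressed gene, fell by 0.67, NDRG2 fell by 0.47 and CEBPA fell by 0.44. CDKN1B (-0.08, adjusted p = 0.19) was not called.

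**Figure D4:**
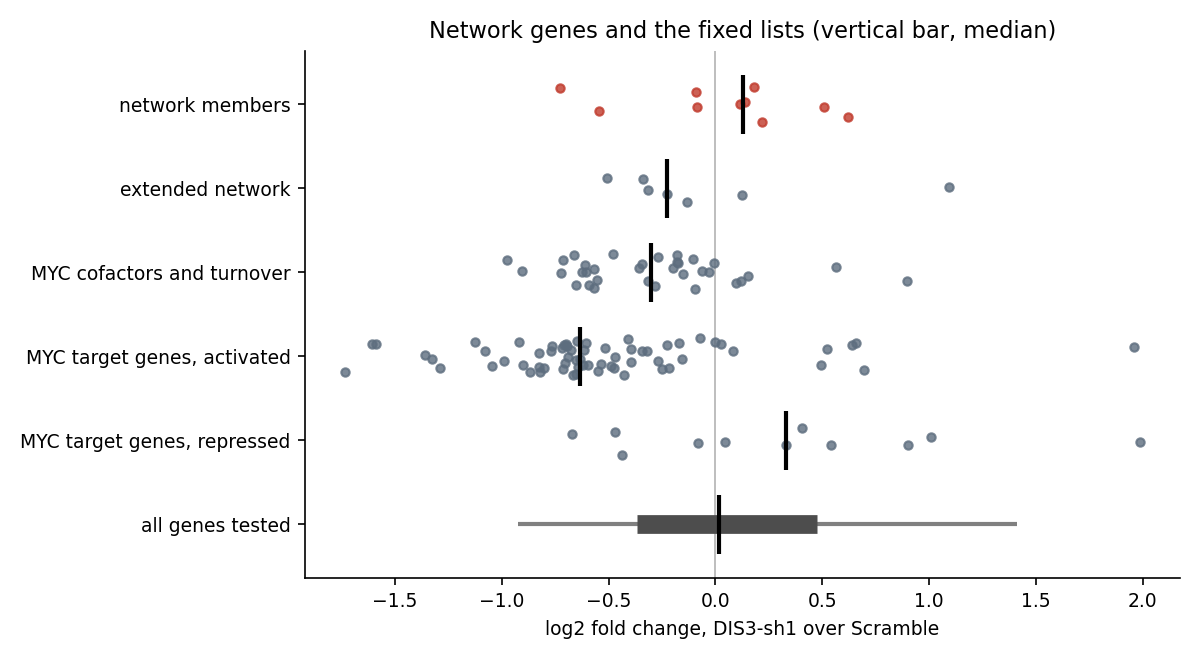
Log2 fold change of DIS3-sh1 over Scramble (horizontal axis) for each tested gene of the network (red) and of the 4 lists (grey points), with vertical bars at medians; for all genes tested the thick line spans the middle 50% of genes and the thin line the middle 90%. The MYC-activated list has a median of -0.64 against 0.02 for all genes, and the network members lie on both sides of 0.

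Among the 10877 tested genes that averaged 10 CPM or more, those most like MYC over the 6 libraries, by the root mean square difference of log2 CPM centred on each gene's Scramble mean, were PDP1 (0.01), RPS6 (0.02) and LGR5 (0.02). Their log2 fold changes were 0.12, 0.11 and 0.11, and of the 3 only RPS6 was called (adjusted p = 9.63e-05). All of these profiles, like that of MYC, are nearly level between the groups.

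**Figure D5:**
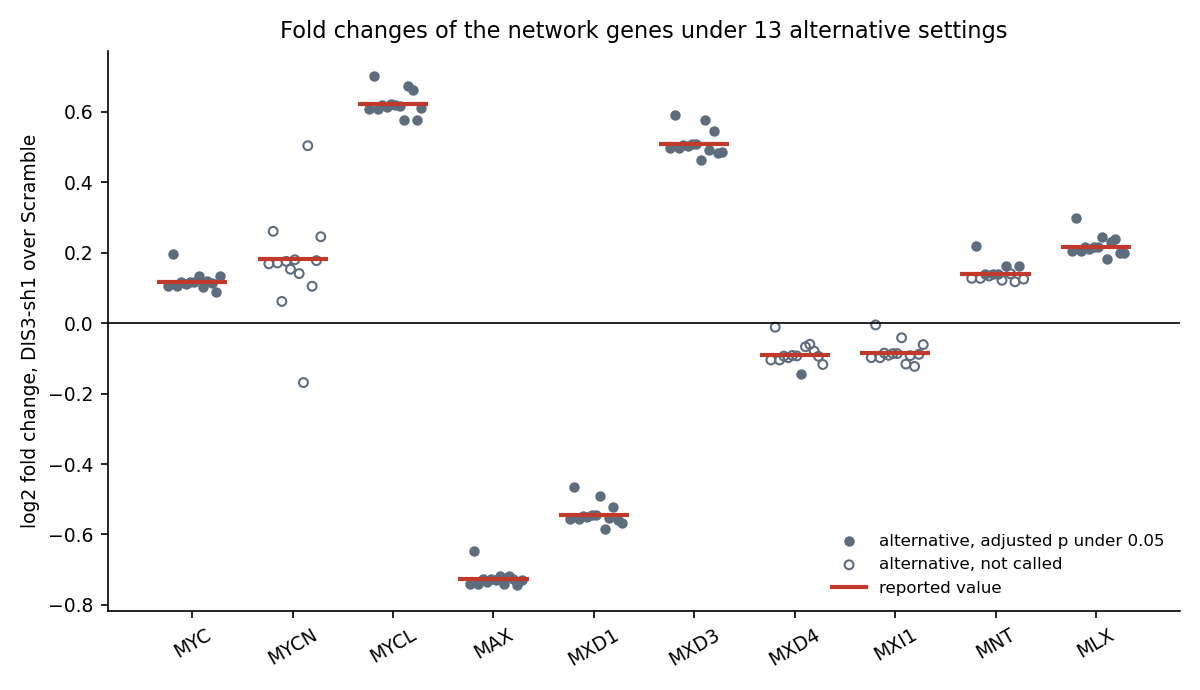
Log2 fold change of DIS3-sh1 over Scramble (vertical axis) of the 10 network genes as reported (red lines) and under 13 alternative settings (points; filled where the adjusted p was under 0.05). MAX ran from -0.74 to -0.65 and MYCL from 0.58 to 0.70, called throughout, while MNT was called in some settings only and MYCN ran from -0.17 to 0.50, never called.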

How the data were processed

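RNA of 293T cells was sequenced after ribosomal RNA depletion, with stranded libraries per the labels' protocols. The authors deposited expected counts for each gene, which need not be whole. The tools were featureCounts 1.5.1, HISAT2 2.1.0, Bowtie2 2.3.5 and SAMtools, with hg38, per the submitters' processing notes; settings, annotation and strand use are not given in the sources used here. Of 9 per-sample columns, 3 matched no label and were not used, so the fit planned for 9 libraries was made on 6.

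Values were rounded and tested in R 4.3.3 with edgeR 4.0.16 (scaled by TMM, filter by group, robust quasi-likelihood F-test, two-sided, group as the only term). SE is the absolute log2 fold change over the square root of F. DESeq2 1.42.0, limma 3.58.1 and other settings were alternatives. The fit was tested on simulated data with few changed genes, where false calls ran somewhat above the nominal share; most genes were called here, so this need not carry over. Symbols matched 61757 of 61853 identifiers; coordinates and lengths are from GENCODE 29. Members, lists and tests were chosen with earlier results of these data known. Named by rule were all members, the extended network, DIS3, the 4 genes of smallest p and up to 4 against the trend in each other list, and the 3 genes most like MYC. ARRDC4 and CDKN1B, like HUWE1, were named outside this rule. Deviations from the group means correlated at 0.05, 0.02 and 0.00 between same-numbered libraries and at -0.03 to 0.02 between differently numbered ones. Pairing by number was thus not shown, and values this small cannot exclude it.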

Additional observations from a re-analysis of the deposited data

How the results depend on the processing

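Under 13 alternatives (RLE and upper-quartile scaling, DESeq2, limma-voom, no filter, replicate block, leaving out genes over 0.5% of counts, and leaving out each of 6 libraries), MYC, MYCL, MAX, MXD1, MXD3 and MLX kept their direction and their call. Between 4 and 5 members were higher and between 2 and 3 lower, 3 only without DIS3-sh1 replicate 1, where MXD4 was called. With the replicate number as a block, 5 members were higher and 2 lower, the same calls as reported. In the extended network, 1 gene instead of 2 was higher with RLE scaling, with DESeq2, with no filter, and, leaving out 1 library at a time, between 1 and 2. HUWE1 stood at 0.0184 on the log2 scale with upper-quartile scaling. In that setting the median over all genes tested was 0.10, against 0.02 as reported, so genes in general stood higher there. A reason particular to HUWE1 was not tested. For MYC-activated genes, 54 to 56 were lower and 5 to 7 higher. Depth limits MYCN, at 8 to 22 counts per library.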
